A study of Mus musculus with 12 samples.

Results

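The genes described here encode enzymes of glycolysis, and 10 were listed by name: Eno1, Eno2, Aldoa, Aldoc, Pfkl, Pfkp, Gapdh, Gpi1, Pgk1 and Tpi1. The list was made by name, not from measured values, though earlier results of these data were known when it was chosen. Each gene was represented by its brightest probe, and 7 of the 10 genes were tested among 9806 genes in all. RNA was measured on 12 arrays of cells sorted by green fluorescence from trypsin-dissociated islets of mice that carry GFP with Pdx1, in a Pdx1-GFP tg x ICR cross. All animals were heterozygous for the transgene, and no non-transgenic sample was set beside them. The groups were E18.5 embryos (4 samples), P1 pups (3), P10 pups (2) and adults of 5 weeks (3). Pdx1 is a transcription factor of beta cells that is also present in other pancreatic cells, so the gate need not hold beta cells alone. The labels do not say whether the samples came from separate litters or pools, and p-values therefore measure the spread between these samples.

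Glycolysis splits glucose into pyruvate and gains ATP and NADH on the way. Several steps have isozymes, related enzymes from separate genes, whose mix differs between tissues and ages. In beta cells glycolysis is also the sensor of blood glucose, because the ATP made from pyruvate in mitochondria closes potassium channels and triggers insulin release. Mature beta cells are known to keep lactate dehydrogenase low, so that pyruvate goes to the mitochondria.

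The promoters of the genes whose levels are described most closely were taken from RefSeq (build GRCm38.p6), from 250 bases before to 50 bases after the annotated start, on the strand of the gene. Capitals mark ACGTG and GCGTG, the core letters of the element bound by hypoxia-inducible factors, and CACGT and CACGC are the same letters on the other strand. Eno2 is shown because it had the largest difference of the listed genes. Its window lies at chr6:124769624-124769923 on the minus strand.
Eno2: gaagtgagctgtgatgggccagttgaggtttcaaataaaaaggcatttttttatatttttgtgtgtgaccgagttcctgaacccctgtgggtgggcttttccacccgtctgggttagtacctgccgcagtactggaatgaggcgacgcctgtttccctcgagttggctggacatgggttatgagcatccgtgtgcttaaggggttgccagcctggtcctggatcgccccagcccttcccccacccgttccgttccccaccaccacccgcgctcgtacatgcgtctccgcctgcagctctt
Tpi1 and Gapdh lie on the same chromosome and moved the other way. Their windows are chr6:124814109-124814408 and chr6:125165724-125166023, both on the minus strand.
Tpi1: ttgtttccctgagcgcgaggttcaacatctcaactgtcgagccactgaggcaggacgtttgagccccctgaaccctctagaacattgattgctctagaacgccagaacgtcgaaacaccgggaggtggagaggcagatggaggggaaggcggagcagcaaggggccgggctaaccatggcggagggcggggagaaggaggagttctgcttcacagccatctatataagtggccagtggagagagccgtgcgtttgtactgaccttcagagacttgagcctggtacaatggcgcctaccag
Gapdh: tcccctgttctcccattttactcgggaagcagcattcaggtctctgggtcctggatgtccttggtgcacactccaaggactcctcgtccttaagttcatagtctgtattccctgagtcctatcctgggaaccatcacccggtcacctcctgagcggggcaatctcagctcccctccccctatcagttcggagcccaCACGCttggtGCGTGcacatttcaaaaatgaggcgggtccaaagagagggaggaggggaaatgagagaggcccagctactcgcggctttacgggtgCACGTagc
Pfkl and Pfkp are shown as isozymes that differed in opposite directions. Their windows are chr10:78009758-78010057 and chr13:6648722-6649021, both on the minus strand.
Pfkl: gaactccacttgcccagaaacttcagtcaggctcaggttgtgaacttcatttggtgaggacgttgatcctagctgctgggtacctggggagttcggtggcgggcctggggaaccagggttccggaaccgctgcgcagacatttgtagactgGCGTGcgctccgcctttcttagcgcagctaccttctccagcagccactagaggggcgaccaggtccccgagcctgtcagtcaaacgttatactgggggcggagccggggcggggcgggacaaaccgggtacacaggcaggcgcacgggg
Pfkp: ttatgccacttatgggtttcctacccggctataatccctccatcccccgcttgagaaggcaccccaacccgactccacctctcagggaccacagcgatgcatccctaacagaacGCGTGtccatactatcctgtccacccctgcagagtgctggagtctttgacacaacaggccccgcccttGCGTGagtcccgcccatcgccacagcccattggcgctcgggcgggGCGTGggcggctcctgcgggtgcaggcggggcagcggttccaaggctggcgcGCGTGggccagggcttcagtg

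The promoters of Eno2 and Tpi1 lay 44.5 kb apart and those of Tpi1 and Gapdh 351.6 kb apart. The Eno2 and Tpi1 windows held 0 copies of either core. The Gapdh window held 3 copies, the Pfkl window 1 and the Pfkp window 4. Of all 32851 promoter windows in the RefSeq table, 19.6% held ACGTG, 32.4% held GCGTG and 43.8% held either on either strand. Of the 7 tested genes, 5 had a core in at least 1 annotated window, and 7 of their 10 windows held a core. The E-box CACGTG, which contains ACGTG, was in 0 of their windows and in 7.15% of all windows. The GC box GGGCGG was found for 5 of the 7 genes in at least 1 window. It was in 35.7% of all single windows, a share not like for like, since some of the genes have several windows. The same holds for the count of genes with a core. Overlapping Aldoa windows share a single core, which was counted in each of them. In adults against E18.5, Pfkl, Gapdh and Aldoc had a core and fell, and Tpi1 lacked it and fell. Pfkp had a core and rose, and Eno2 lacked it and rose. Aldoa had a core in some of its windows and was not called. Whether the cores bear on these directions was not tested.

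Of the 10 genes, Eno1 and Gpi1 have no probe named here and are not analysed. Pgk1, whose product makes ATP from bisphosphoglycerate, had 1 probe, above background on 1 array. Its deposited intensities lay between 32.3 and 43.0, where the limits of background on the arrays lay between 38.9 and 46.5, and it was not tested. Of the tested genes, Pfkp was the dimmest, above background on 11 of 12 arrays, and the other 6 were above it on all 12. Levels below are log2 normalised intensities, and a difference of 1 on this scale is a doubling. Probes differ in brightness for reasons other than abundance, so levels were compared within a gene only. Gapdh, Aldoa and Tpi1 have near-identical pseudogene copies in the mouse genome, and binding of such transcripts to their probes was not tested.

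The arrays had 42.5% to 50.6% of 25697 probes above background. Beta cell genes were well measured, with 11 of 12 markers tested and Ins2, Pdx1 and Iapp above background on all 12 arrays. Hormone genes of other islet cells were high as well, with Gcg, Sst, Ppy and Pyy above background on all 12 arrays. Acinar markers, which encode digestive enzymes, shifted strongly with age. The mean level of the 21 acinar genes tested, of 25 listed, ranged from 4.86 to 6.48 at E18.5, 5.38 to 7.70 at P1, 9.76 to 11.26 at P10 and 10.37 to 11.78 in adults. All 21 rose at P10 relative to P1 and in adults relative to E18.5. Of the other 4, Amy1 was above background on 0 arrays and 3 have no probe named here. Of 25 cell cycle genes 20 were tested, and all 20 fell in adults relative to E18.5. Their mean level ranged from 6.81 to 7.10 at E18.5 and from 5.17 to 5.60 in adults. Of 12 markers of the other endocrine cells 9 were tested, with mean levels from 10.07 to 10.94 at E18.5. In adult replicates 1, 2 and 3 the mean was 10.005, 10.07 and 8.46, so the low end was a single array. In adults relative to E18.5, 4 of these 9, 5 of 8 endothelial, 4 of 8 duct and 2 of 8 stromal markers fell. So did 2 of 2 neuron and glia, 1 of 5 immune and 1 of 3 red blood cell markers. In these lists 0 markers rose, where 17.6% of all tested genes rose and 20.7% fell. Of the 11 beta cell markers tested, 3 rose and 1 fell. Their mean level ranged from 9.12 to 9.29 at E18.5 and from 9.66 to 9.82 in adults. In sorted bulk samples, a smaller share of cells of a type and less RNA per cell cannot be told apart.

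**Figure D1:**
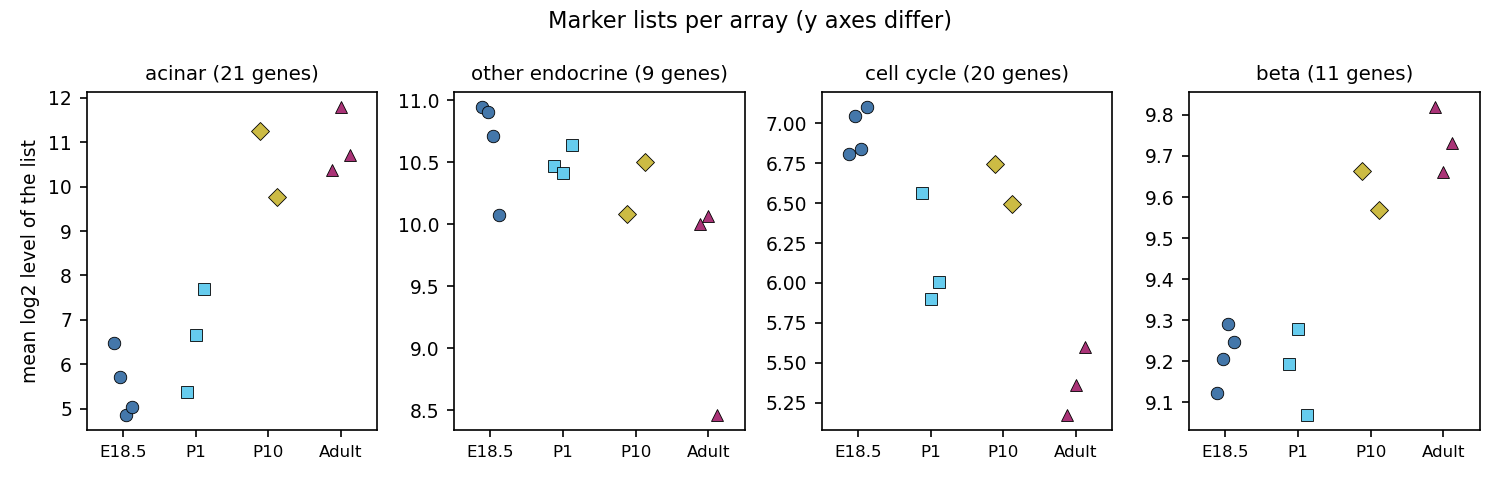
Mean log2 level of 4 marker lists on each array (1 point per array) by age, with n = 4, 3, 2 and 3 for E18.5, P1, P10 and Adult. The acinar list lies between 4.86 and 7.70 before P10 and above 9.7 from P10 on, and the cell cycle list is lowest in adults.

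All 7 tested genes differed over the 4 ages by limma's moderated F-test, where 41.2% of all tested genes were called. A called gene is one with an adjusted p below 0.05 after Benjamini-Hochberg adjustment over all tested genes. The adjusted p was 3.3e-09 for Eno2 and lay between 0.00027 and 0.016 for the other 6. The Aldoa call was lost without P10 replicate 1 (adjusted p = 0.052), P10 replicate 2 (0.057) or adult replicate 1 (0.0503). That of Pfkp was lost without adult replicate 2 (adjusted p = 0.057) or 3 (0.056), with the mean of its kept probes (0.079) and with the mean of other endocrine markers as an added term (0.19). With the acinar mean as an added term, 3 of the 7 passed (Eno2, Aldoc and Pfkl). The acinar means of E18.5 and P1 samples did not overlap those of P10 and adult samples, so this term cannot be cleanly separated from age. A call can be lost with it though the difference grows, as for Pfkp, Pfkl and Aldoc in adults against E18.5. The genes did not share 1 course over age. Eno2 rose at P10 and again in adults, Pfkp stood higher in adults, Pfkl, Gapdh and Tpi1 were lower in adults than at E18.5, and Aldoa and Aldoc moved in opposite directions between P10 and adulthood.

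**Figure D2:**
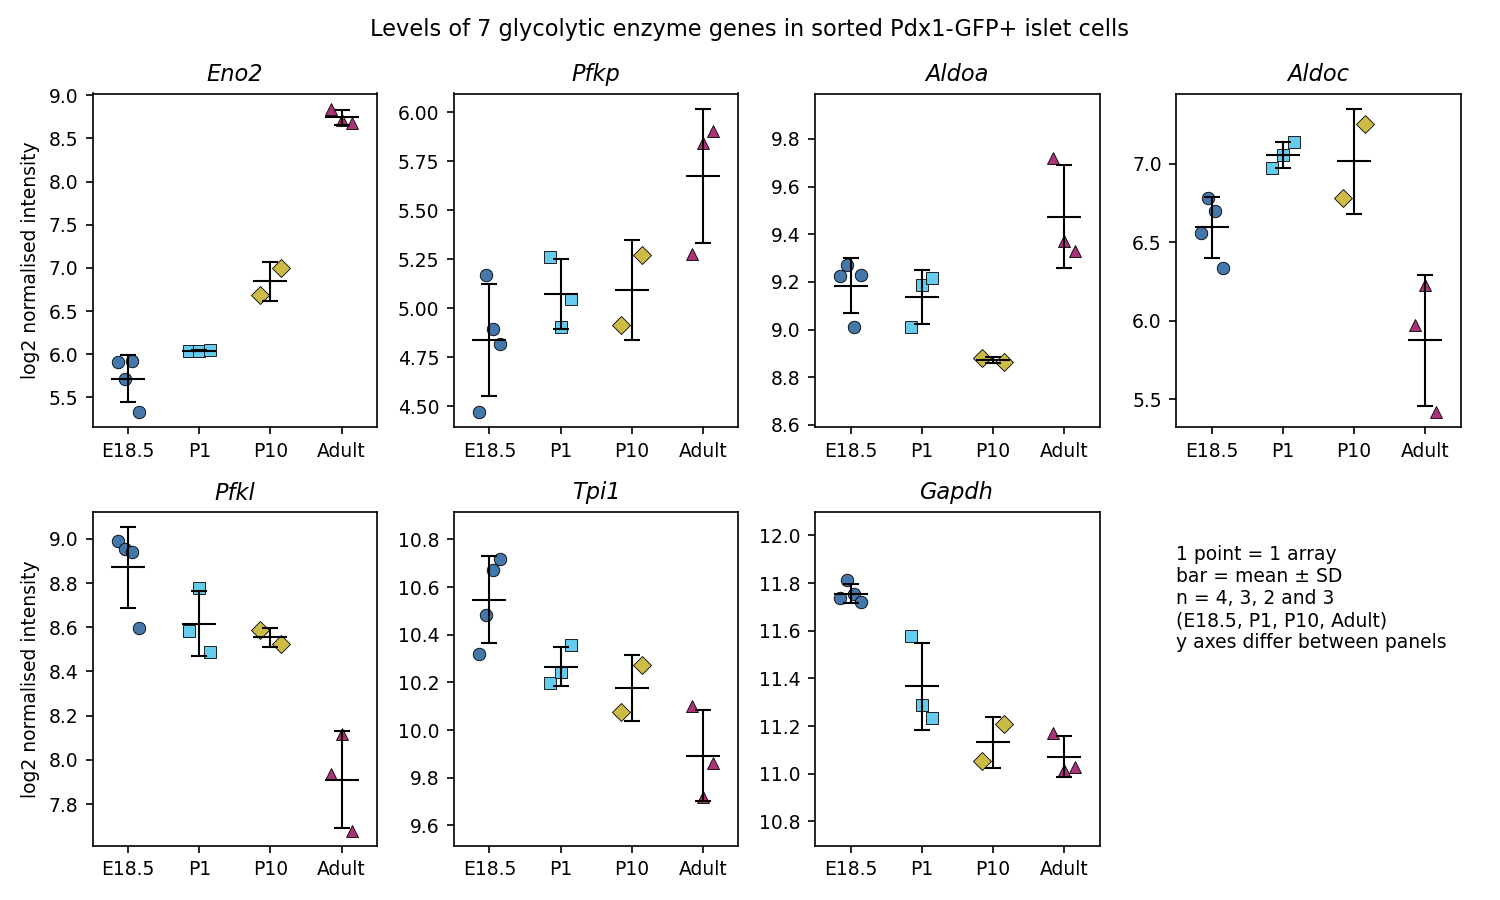
Log2 normalised intensity of the 7 tested genes on each of the 12 arrays, by age (1 point per array, bar for mean ± SD, each panel with its own y axis). Eno2 is higher in all 3 adult samples (8.67 to 8.84) than in all younger ones (5.33 to 7.00), and Pfkl is lower in all 3 adult samples (7.68 to 8.12) than in all younger ones.

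Eno2 encodes gamma enolase, the isozyme of neurons and neuroendocrine cells, which makes phosphoenolpyruvate. Its levels were 5.91, 5.71, 5.92 and 5.33 at E18.5, 6.04, 6.04 and 6.04 at P1, 6.69 and 7.00 at P10, and 8.84, 8.71 and 8.67 in adults. The 4 ages followed each other without overlap, lowest in embryos and highest in adults. P1 samples stood 0.32 ± 0.14 (SE) above E18.5 samples on the log2 scale, which did not pass the test (adjusted p = 0.2). P10 samples were 1.75-fold above P1 samples (0.80 ± 0.16, adjusted p = 0.0056). This call was lost without P10 replicate 2, where the difference was 0.65 (adjusted p = 0.091), and with the acinar mean as an added term (0.84, adjusted p = 0.37). Adults were 3.73-fold above P10 samples (1.90 ± 0.16, adjusted p = 4.7e-06) and 8.15-fold above E18.5 samples (3.03 ± 0.14, 95% interval 2.73 to 3.32, adjusted p = 6.9e-10). Among 9806 genes the adult difference from E18.5 ranked 40 and that from P10 ranked 14 from the highest. Both adult calls held in all 24 alternative settings, with differences of 2.41 to 3.26 from E18.5 and 1.64 to 2.06 from P10. Across the 12 arrays, Eno2 correlated with the acinar mean at r = 0.85 with the cell cycle mean at r = -0.85 and with the beta cell mean at r = 0.88. With the acinar mean as an added term, the adult difference from E18.5 was 3.08 (adjusted p = 0.0018).

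The phosphofructokinases Pfkl and Pfkp form the tetramers that commit sugar to glycolysis, Pfkl being the liver type and Pfkp the platelet type. Pfkl had levels of 8.99, 8.96, 8.94 and 8.60 at E18.5, 8.58, 8.78 and 8.49 at P1, 8.59 and 8.52 at P10, and 7.93, 8.12 and 7.68 in adults. The adult samples lay below every younger sample. P1 samples overlapped those of E18.5 and those of P10, and P10 samples lay just below all E18.5 samples. Adults were 1.56-fold below P10 samples (-0.64 ± 0.15, adjusted p = 0.013) and 1.95-fold below E18.5 samples (-0.96 ± 0.13, adjusted p = 4.1e-05). The call against P10 was lost without P10 replicate 1 (adjusted p = 0.099) or without P10 replicate 2 (adjusted p = 0.076). It was also lost with the mean of both Pfkl probes, where the difference was -0.28 (adjusted p = 0.21). The second Pfkl probe was dim, above background on 8 of 12 arrays and on 1 of 3 in adults. Tested among 14179 probes, it did not pass for adults against P10 (0.09, adjusted p = 0.815) or against E18.5 (-0.25, adjusted p = 0.228). With the mean of other endocrine markers as an added term, the brighter probe differed by -0.46 between adults and P10 (adjusted p = 0.082). With the acinar mean as an added term, the brighter probe differed by -1.28 between adults and E18.5 (adjusted p = 0.12). Its level correlated with the acinar mean at r = -0.73, with the cell cycle mean at r = 0.80 and with the beta cell mean at r = -0.76.

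Pfkp had levels of 4.47, 5.17, 4.89 and 4.82 at E18.5, 5.26, 4.91 and 5.05 at P1, 4.91 and 5.27 at P10, and 5.28, 5.84 and 5.90 in adults. All adult samples stood above all E18.5 samples, and the lowest adult sample was level with the highest P10 sample. Adults were 1.79-fold above E18.5 samples (0.84 ± 0.18, adjusted p = 0.0018), while the difference from P10 was 0.58 ± 0.21 (adjusted p = 0.09). The adult difference from P10 passed without adult replicate 1, at 0.78 (adjusted p = 0.022). The call against E18.5 was lost with the acinar mean (1.28, adjusted p = 0.29) and with the mean of other endocrine markers (0.70, adjusted p = 0.064) as an added term. The rise rested on 1 probe. A second probe differed by -0.04 between adults and E18.5 (adjusted p = 0.81, among 14179 probes) and did not show it. That probe was dim, above background on 4 of 12 arrays and on 0 of 3 adult arrays. The remaining probe was above background on 0 of 12.

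The aldolases split fructose bisphosphate into a pair of triose phosphates. Aldoa, the type of muscle and most other tissues, had levels of 9.23, 9.27, 9.01 and 9.23 at E18.5, 9.01, 9.19 and 9.22 at P1, 8.88 and 8.86 at P10, and 9.72, 9.37 and 9.33 in adults. The P10 samples were the lowest and the adult samples the highest, with no overlap between them, and E18.5 and P1 overlapped. Adults were 1.52-fold above P10 samples (0.60 ± 0.14, adjusted p = 0.01). Leaving out either P10 sample ended this call, with an adjusted p of 0.066 without replicate 1 and of 0.081 without replicate 2. The adult difference from E18.5 was 0.29 ± 0.12 (95% interval 0.04 to 0.54, adjusted p = 0.062) and did not pass. It passed without adult replicate 3 at 0.36 (adjusted p = 0.044), with an offset of 50 at 0.28 (adjusted p = 0.039) and without background correction at 0.28 (adjusted p = 0.044).

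Aldoc, the aldolase of brain, had levels of 6.56, 6.78, 6.70 and 6.34 at E18.5, 6.97, 7.06 and 7.14 at P1, 6.78 and 7.25 at P10, and 5.98, 6.23 and 5.42 in adults. The adult samples lay below all others and the P1 samples above all E18.5 samples. Adults were 2.21-fold below P10 samples (-1.14 ± 0.21, adjusted p = 0.0023) and 1.65-fold below E18.5 samples (-0.72 ± 0.17, adjusted p = 0.0044). Without P10 replicate 2 the adult difference from P10 was -0.91 (adjusted p = 0.058). The adult difference from E18.5 was -0.92 (adjusted p = 0.48) with the acinar mean and -0.20 (adjusted p = 0.42) with the mean of other endocrine markers as an added term. Adult replicate 3 was the lowest array both for Aldoc (5.42) and for the mean of other endocrine markers (8.46). P1 samples differed from E18.5 samples by 0.46 ± 0.17 (adjusted p = 0.14), and this passed with the mean of other endocrine markers as an added term (0.53, adjusted p = 0.015).

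Tpi1 encodes triosephosphate isomerase, which makes both aldolase products usable. Its levels were 10.32, 10.48, 10.67 and 10.72 at E18.5, 10.20, 10.25 and 10.36 at P1, 10.08 and 10.27 at P10, and 10.10, 9.72 and 9.86 in adults. Each age overlapped its neighbours, and adult and E18.5 samples did not overlap. Adults were 1.57-fold below E18.5 samples (-0.65 ± 0.12, adjusted p = 0.00073), and none of the 3 steps between neighbouring ages passed, with differences of -0.28, -0.09 and -0.28 for this probe. Both other Tpi1 probes, tested among 14179 kept probes, also fell in adults against E18.5, by 1.01 (adjusted p = 2.5e-06) and by 0.44 (adjusted p = 0.0037). The brighter of these also passed between P1 and E18.5 (-0.44 ± 0.10, adjusted p = 0.025).

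Gapdh encodes glyceraldehyde phosphate dehydrogenase, the step that makes NADH, and often serves as a reference gene in PCR. It had levels of 11.74, 11.81, 11.75 and 11.72 at E18.5, 11.58, 11.29 and 11.24 at P1, 11.06 and 11.21 at P10, and 11.17, 11.02 and 11.03 in adults. All E18.5 samples stood above all later ones, and P10 and adult samples overlapped. Adults were 1.61-fold below E18.5 samples (-0.68 ± 0.11, 95% interval -0.91 to -0.46, adjusted p = 0.00013). P1 samples were 1.31-fold below E18.5 samples (-0.39 ± 0.11, adjusted p = 0.047). That call held in 10 of 24 alternative settings. On leaving out 1 sample it held without P1 replicate 1, adult replicate 1 or adult replicate 3 (adjusted p = 0.0499 for this last one) and was lost without any 1 of the others, with adjusted p up to 0.19. The second Gapdh probe differed by -0.63 ± 0.12 between adults and E18.5 (adjusted p = 0.00082) and by -0.49 ± 0.12 between P1 and E18.5 (adjusted p = 0.032), among 14179 probes. The brighter probe had an adjusted p of 0.051 for P1 against E18.5 among those probes.

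Gapdh and Tpi1 ran against the acinar markers. Across the 12 arrays, which span 4 ages, Gapdh correlated with the acinar mean at r = -0.91 and Tpi1 at r = -0.84. With the cell cycle mean they correlated at r = 0.76 and r = 0.75, and with the beta cell mean at r = -0.74 and r = -0.68. With the acinar mean as an added term, the adult difference from E18.5 was -0.18 for Gapdh (adjusted p = 0.83) and -0.14 for Tpi1 (adjusted p = 0.9). The part of acinar RNA in their fall was not tested.

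**Figure D3:**
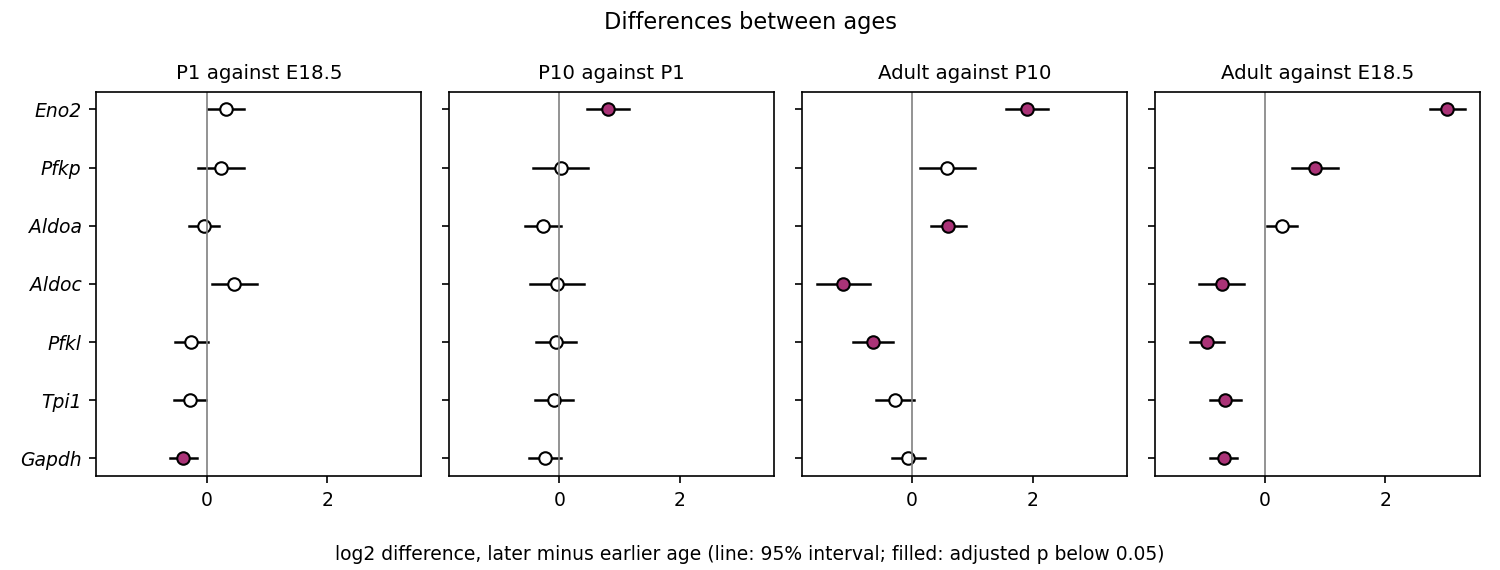
Log2 differences of the 7 tested genes in 4 comparisons, later minus earlier age, with 95% intervals from limma. Filled points have an adjusted p below 0.05, and adults against E18.5 hold 2 of them above 0 and 4 below.

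The counts by comparison were as follows. Between P1 and E18.5, 0 genes of the 7 rose and 1 fell (Gapdh), where 2.38% of all tested genes rose and 2.69% fell. Between P10 and P1, 1 rose (Eno2) and 0 fell, against 5.17% and 5.72% of all genes. Between adults and P10, 2 rose (Eno2 and Aldoa) and 2 fell (Aldoc and Pfkl), against 5.68% and 6.8% of all genes. Between adults and E18.5, 2 rose (Eno2 and Pfkp) and 4 fell (Aldoc, Pfkl, Gapdh and Tpi1), against 17.6% and 20.7% of all genes. The median difference of the 7 was -0.65 for adults against E18.5, where the median of all tested genes was -0.01, and between -0.05 and -0.06 at the 3 single steps. With the acinar mean as an added term, 1 of the 7 (Eno2) was called between adults and E18.5, against 128 of all genes.

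Across the 12 arrays, the levels of Gapdh and Tpi1 correlated at r = 0.82, Pfkl and Gapdh at r = 0.76, and Pfkl and Tpi1 at r = 0.72. Eno2 ran against Pfkl at r = -0.89 and against Tpi1 at r = -0.83. These values describe 12 arrays that also differ in age and acinar level. The gene most like Eno2 was Plekha2 (r = 0.98), the one most like Tpi1 was Med8 (r = 0.98), and the one most like Pfkl was Ppp2r2b (r = 0.95). Aldoc was most like Pdk4 (r = 0.95), Gapdh most like Npm3-ps1 (r = 0.95), Pfkp most like Slc30a6 (r = 0.92) and Aldoa most like Ccdc159 (r = 0.91). The mean of the 7 genes, each scaled to the same spread, was most like Nid2 (r = 0.88), Polr3b (r = 0.88), Rasgrp3 (r = 0.87), Rasip1 (r = 0.87) and F2r (r = 0.86).

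A probe for Eno1b, a gene near-identical to Eno1, was measured, and it was looked at after its values were known. Transcripts of Eno1 and Eno1b may bind this probe alike, so its value belongs to neither alone. Its level ranged from 5.85 to 6.10 at E18.5, 5.30 to 5.88 at P1, 5.07 to 5.44 at P10 and 5.19 to 5.49 in adults. Adults were 1.59-fold below E18.5 samples (-0.67 ± 0.15, adjusted p = 0.0024), while Eno2 was 8.15-fold above.

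The rest of the path was described by further lists. Of 26 other enzymes and carriers of the path 13 were tested, and 2 rose and 2 fell between adults and E18.5, against 17.6% and 20.7% of all genes, with a median difference of 0.02. The muscle phosphofructokinase Pfkm was 1.46-fold higher in adults (0.55 ± 0.12, adjusted p = 0.0023), on the side of Pfkp and not of Pfkl. The muscle enolase Eno3 was 1.51-fold higher (0.59 ± 0.14, adjusted p = 0.0046), on the side of Eno2. Whether isozymes differed from each other was not tested. Slc2a1, a glucose transporter of most tissues, had levels of 7.76, 7.50, 7.41 and 7.45 at E18.5, 6.72, 7.05 and 6.73 at P1, 6.77 and 6.52 at P10, and 6.64, 6.72 and 6.54 in adults. All E18.5 samples stood above all later samples, and P10 samples overlapped those of P1 and those of adults. P1 samples were 1.62-fold below E18.5 samples (-0.70 ± 0.12, adjusted p = 0.0074). Slc2a2, the main glucose transporter of rodent beta cells, differed by 0.14 between adults and E18.5 (adjusted p = 0.5).

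Lactate dehydrogenase A (Ldha), which turns pyruvate into lactate, ranged from 5.31 to 6.63 at E18.5, 4.87 to 5.54 at P1, 5.03 to 5.07 at P10 and 4.40 to 4.83 in adults. The adult samples lay below all others. Its probe was not well above background on any of the 3 adult arrays, so adults were at least 1.95-fold below E18.5 samples (fitted difference -1.28 ± 0.27, adjusted p = 0.0015). That bound sets the E18.5 mean against the lowest level above background on the adult arrays, or the probe's own level where higher. At E18.5, Ldha stood at 5.37, 6.63, 6.14 and 5.31 in replicates 1 to 4. There the endothelial marker mean was 5.12, 6.32, 5.65 and 5.27, and the stromal one 4.72, 6.04, 5.99 and 4.98. At P1, replicate 3 was highest for Ldha and for both means. At P10, Ldha was 5.03 and 5.07 where the endothelial mean was 4.92 and 5.52. The part of RNA from such cells in the fall of Ldha was not tested. Pyruvate kinase genes Pkm and Pklr differed by -0.07 (adjusted p = 0.65) and 0.15 (adjusted p = 0.43), and hexokinase Hk2 by -0.20 (adjusted p = 0.23).

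**Figure D4:**
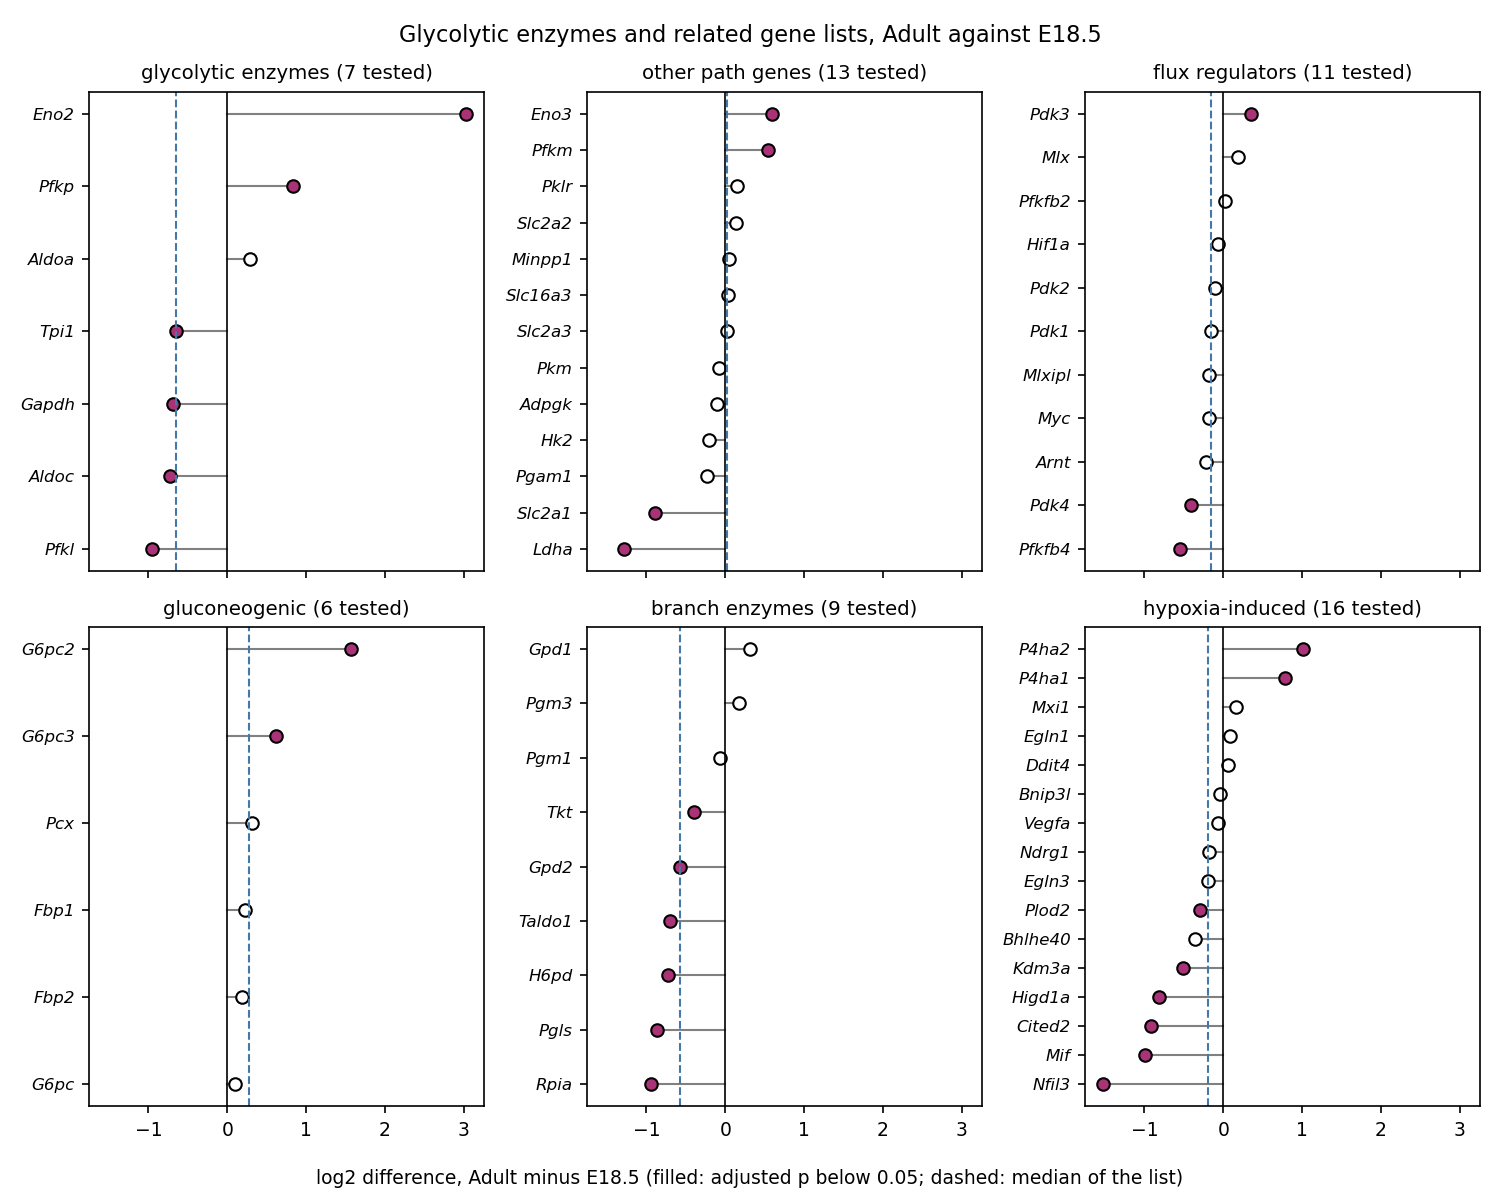
Log2 differences, adults minus E18.5, of the tested genes of 6 lists, with filled points for an adjusted p below 0.05 and a dashed line at the median of each list. Eno2 has the largest difference at 3.03, and 6 of 9 branch enzymes are lower in adults.

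Of 16 regulators of glycolytic flux 11 were tested, and 1 rose and 2 fell between adults and E18.5, against 17.6% and 20.7% of all genes. Pfkfb4, which sets the level of the activator of phosphofructokinase, fell 1.47-fold (-0.55 ± 0.11, adjusted p = 0.0015). P10 samples were below P1 samples by about as much (-0.56 ± 0.14, adjusted p = 0.016). Pyruvate dehydrogenase kinases restrain the entry of pyruvate into mitochondria. Pdk4 was 1.33-fold lower (-0.41 ± 0.14, adjusted p = 0.029) and Pdk3 1.28-fold higher (0.35 ± 0.10, adjusted p = 0.009) in adults than at E18.5. The Pdk4 samples of these ages overlapped, and its probe was above background on 2 of 3 adult arrays. Mlxipl, a glucose-responsive transcription factor, was 1.90-fold lower in adults than at P10 (-0.93 ± 0.21, adjusted p = 0.0093). It differed by -0.18 between adults and E18.5 (adjusted p = 0.46). Hif1a differed by -0.07 (adjusted p = 0.73).

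Of 8 gluconeogenic genes 6 were tested, and 2 rose and 0 fell between adults and E18.5, against 17.6% and 20.7% of all genes. G6pc2, an islet glucose phosphatase that opposes glucokinase, averaged 12.63 ± 0.11 in adults (SD, n = 3) and 11.06 ± 0.48 at E18.5 (SD, n = 4). It was 2.96-fold higher (1.56 ± 0.20, adjusted p = 2.2e-05). G6pc3, the form of most tissues, was 1.54-fold higher (0.62 ± 0.14, adjusted p = 0.0033). Of 17 genes of branches that leave glycolysis 9 were tested, and 0 rose and 6 fell, against the same shares of all genes. Those included Rpia (-0.95 ± 0.15, adjusted p = 2e-04), Pgls (-0.87 ± 0.14, adjusted p = 0.00025), H6pd (-0.72 ± 0.12, adjusted p = 0.00035) and Taldo1 (-0.70 ± 0.09, adjusted p = 3.2e-05), all of the pentose phosphate path. The median of the 9 was -0.58.

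Of 24 hypoxia-induced genes outside glycolysis 16 were tested, and 2 rose and 6 fell between adults and E18.5, against 17.6% and 20.7% of all genes, with a median difference of -0.19. P4ha1 and P4ha2, which encode collagen prolyl hydroxylase subunits, rose by 0.79 ± 0.13 (adjusted p = 0.00021) and by 1.01 ± 0.14 (adjusted p = 6.4e-05). The cytokine gene Mif fell by 0.99 ± 0.11 (adjusted p = 7e-06) and the transcription factor gene Nfil3 fell by 1.52 ± 0.21 (adjusted p = 5.4e-05). Vegfa, a much used hypoxia target, differed by -0.07 (adjusted p = 0.64).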

How the data were processed

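The values were the intensities of 25697 probes per array that the authors deposited, on a linear scale, from 12 arrays of biotin-labelled RNA. Per the labels' protocols the RNA was amplified with an Illumina kit, and scaling or background subtraction by the authors is not given in the sources used here. A further 24 columns of another table have names that match no sample label and were not used. Gene names came from the platform annotation, with 23978 probes having 1 symbol, 0 several and 1719 unnamed here, and 23962 matched RefSeq.

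From these intensities, normexp background correction (offset 16), quantile normalization and log2 were computed with limma 3.58.1 in R 4.3.3. A probe counted as above background past a limit set from the mode of each array's signals, at the upper 0.01 tail of the spread below it, and 13353 named probes above it on 2 or more arrays were kept. The brightest kept probe stood for each gene, which gave 9806 genes. The fit (lmFit, eBayes) used all 12 samples with age as the factor, a moderated F-test and 4 contrasts. P-values were adjusted by Benjamini-Hochberg over all genes, with a threshold of 0.05. The number of arrays limits the precision, with as few as 2 per age. Samples within an age correlated at r = 0.978 to 0.991, and those between ages at 0.907 to 0.982. No 2 samples shared more than 0.949% of their probe values, so none was taken for a duplicate. The fit was tested on simulated data. Plots used matplotlib 3.10.9 (Python 3.11.15).

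The enzymes, the other gene lists and the marker lists were chosen with earlier results of these data known. Named beside the enzymes were up to 4 genes of each list with the smallest F-test p among those past the threshold, and the genes most like the enzymes by Pearson's r. Other genes of these lists that are named with values (Slc2a2, Pkm, Pklr, Hk2, Hif1a and Vegfa) and Eno1b were chosen after their values were seen. Alternatives were other background corrections, scalings, filters and probe summaries, another variance model, a block for replicate numbers, fits of both compared ages alone, the mean of acinar or other endocrine markers as an added term, and each sample left out in turn.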

Additional observations from a re-analysis of the deposited data

Results flagged for a closer look

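Outlying samples were looked for in the 4 E18.5 samples of 25 genes, by the gap to the nearest sample as a share of the whole range, set against Dixon's critical value for 4 samples. Pfkl at E18.5 had a ratio of 0.874, because replicate 4 stood at 8.60 and the other 3 between 8.94 and 8.99. G6pc2 at E18.5 had a ratio of 0.960, because replicate 1 stood at 10.34 while the highest sample was at 11.32. These are 2 of 25 groups, and chance alone flags about 5% of groups. Without E18.5 replicate 4, the adult difference from E18.5 of Pfkl still passed.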

How the results depend on the processing

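Of 672 repeats of a difference of the 7 enzymes, 625 kept the direction and the side of the threshold, 30 lost a call, 5 gained one and 12 changed sign. With the acinar mean as an added term, called genes numbered 1267 in the F-test, 211 for P1 against E18.5, 54 for P10 against P1 and 128 for adults against E18.5, and called enzymes 3, 0, 0 and 1. For adults against P10, 1087 genes and the same 4 enzymes were called, against 1224 and 4 without the term. There Gapdh (0.13) and Tpi1 (0.28) changed sign for P10 against P1. With the mean of other endocrine markers, 2133 genes were called for adults against E18.5, and for P10 against P1 Aldoc (0.058) and Pfkp (-0.0054) changed sign. The cause was not tested. For P1 against E18.5 no enzyme was called (0 of 7) under the replicate block, with no filter (where all 8 with a probe were tested) or with only both ages fitted. The replicate block gave 220 genes there. Same-numbered samples deviated together in 4 of 15 pairs at r over 0.1 (range -0.07 to 0.27). Other-numbered samples did so in 6 of 38 pairs (range -0.27 to 0.26). The P10 arrays had r of equal size and opposite sign (0.27 and -0.27 with E18.5 replicate 1), so the pairs are not independent. These values therefore cannot decide whether the numbers pair the samples.

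On leaving out each sample in turn, called genes ranged from 112 to 589 for P1 against E18.5, from 387 to 1173 for P10 against P1 and from 507 to 1279 for adults against P10, and called enzymes from 0 to 1, 0 to 1 and 1 to 5. Signs changed among small differences, which ranged from -0.11 to 0.017 for Aldoa in P1 against E18.5, and in P10 against P1 from -0.28 to 0.20 for Aldoc, -0.13 to 0.019 for Pfkl, -0.16 to 0.20 for Pfkp and -0.19 to 0.0074 for Tpi1. Gapdh ranged from -0.14 to 0.017 for adults against P10. Where P10 kept 1 sample, it was assumed to vary like the other ages.

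Among called genes, the share that rose was 46.9% for P1 against E18.5, 45.5% for adults against P10 and 46.0% for adults against E18.5. With median centring it was 29.5%, 31.5% and 31.0%, and with unscaled deposited values 35.9% for P1 against E18.5. The directions of the called enzymes were the same under both. Slide was not run as a block, since nothing ties samples to slides.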
